A study of Mus musculus with 6 samples.

Results

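Interferon-stimulated genes are the transcripts that cells raise when an interferon reaches its receptor. Type I and type III interferons act through the kinases Jak1 and Tyk2 on a complex with Stat2 and Irf9, which binds the interferon-stimulated response element (ISRE), and the genes it turns on block the entry, translation or replication of viruses. Interferon gamma acts through Jak1 and Jak2 and the gamma-activated site (GAS), and its best known targets include the guanylate-binding proteins (Gbp) and immunity-related GTPases (Irgm, Igtp, Iigp1, Ifi47), which attack the vacuoles of intracellular parasites. Tubule cells, endothelium and resident macrophages of the kidney can all respond to interferon.

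The 44 genes described here were taken by a list of names from the 23276 genes with a symbol in the deposited table. They comprised 31 type I antiviral genes, 5 transcription factors and 8 interferon-gamma GTPases. The table came from RNA sequencing of 6 whole mouse kidneys at postnatal day 22 by the labels. Of these, 3 carried KspCre and Pkd1 F/RC (SKO) and 3 carried KspCre, Pkd1 F/RC and in addition miR17~92 F/F (DKO), so every kidney had the Cre and the Pkd1 alleles and none was wild type. Ksp-driven Cre is active in the renal tubule, where the floxed (F) alleles are removed, and cells outside the tubule keep them. The RC allele encodes a Pkd1 protein of reduced function.

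The measure used was the authors' mean log2 CPM of each transcript, taken over all 6 kidneys together and given below as CPM. CPM are read counts scaled to a common library total. Here that total runs over transcript entries, which sum to 1.007e+06 CPM. The highest entries of all genes with a symbol sum to 370295 CPM (36.8%). A read can count for several entries, so these CPM are not those of a count per gene. A mean over all 6 kidneys has no SD and no n of its own. The number of reads per kidney is unknown, and no order between neighbouring genes could be set against a spread. The other columns of the table hold the authors' own DKO against SKO comparison and were not used, so no difference between the genotypes is given and the loss of miR-17~92 could not be checked by sample. Longer transcripts collect more reads, so single genes were compared with each other after division by transcript length (CPM per kilobase), and summaries in CPM are given beside that scale. In whole kidneys, fewer cells of a type and less RNA per cell cannot be told apart.

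The promoter letters that define the group in textbooks were looked for first, in windows from 250 bases before to 50 bases after each gene start (RefSeq, GRCm38.p6). A window was at hand for 34 of the 44 members. For 28 of these the bases after the start were found near the beginning of the GENCODE transcript that gave the gene its length. For Ifih1, Irf7, Stat2, Irgm1, Irgm2 and Ifi47 they were not, so the positions given for these 6 hold for the RefSeq start only. The core letters of the ISRE, GAAANNGAA on either strand, stood in the windows of 21 of these 34 members (61.8%), against 9.76% of 27025 genes with a window. The GAS letters, TTCNNNGAA, which read the same pattern on both strands, stood in 10 of the 34 (29.4%), against 9.55% of all genes. Both motifs were found in 6 members, and in 1 of these, Bst2, their matches overlapped. The members were picked in the knowledge of interferon biology, so these shares describe the group. A match shows that the letters are there, not that a factor was bound in these kidneys.

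The following stretches lie before the starts of 7 members and were picked, after the matches were known, to show a tandem ISRE, a single ISRE, an ISRE beside a GAS, and a GAS alone. They are written 5′ to 3′ along the gene in lower case, with the matched letters in capitals. Matches that overlap run together, and an ISRE core on the opposite strand reads as TTC, any 2 bases, then TTTC.
Isg15, chr4:156200859-156200918, minus strand: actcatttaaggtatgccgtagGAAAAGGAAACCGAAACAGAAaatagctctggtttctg
Ifit1, chr19:34640759-34640818, plus strand: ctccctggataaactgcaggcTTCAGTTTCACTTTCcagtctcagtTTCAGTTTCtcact
Rsad2, chr12:26456533-26456592, minus strand: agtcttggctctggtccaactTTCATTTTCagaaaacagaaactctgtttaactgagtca
Bst2, chr8:71537563-71537622, minus strand: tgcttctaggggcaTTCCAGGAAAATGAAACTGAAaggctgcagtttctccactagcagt
Irgm2, chr11:58214887-58214946, plus strand: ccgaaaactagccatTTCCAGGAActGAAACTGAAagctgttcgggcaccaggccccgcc
Igtp, chr11:58199496-58199555, plus strand: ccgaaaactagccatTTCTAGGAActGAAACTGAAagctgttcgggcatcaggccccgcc
Irf1, chr11:53769894-53769953, plus strand: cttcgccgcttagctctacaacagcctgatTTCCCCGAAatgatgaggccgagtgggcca

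Isg15, which encodes the ubiquitin-like modifier of the response, Ifit1 and Ifit3 each held 3 ISRE matches in their window. Of the members with a window, 10 held 2 or more ISRE matches in a single window. Overlapping matches within a run of letters, as in Isg15, were each counted, so the count is not one of separate elements. The share of all genes with 2 or more matches was not computed. The stretches of Igtp and Irgm2, neighbouring genes for related GTPases, were identical at 58 of 60 bases, each with a GAS 2 bases before an ISRE. Irf1, a factor known to be induced by interferon gamma, had a GAS and no ISRE core in its window, and so did Irf8.

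By class, the ISRE core stood in 14 of 22 type I antiviral genes, 6 of 7 GTPases and 1 of 5 factors (Stat2). The GAS stood in 5 of 22 type I genes, 3 of 7 GTPases (Igtp, Irgm2 and Gbp7) and 2 of 5 factors. The ISRE matches of the GTPases began from 64 to 24 bases before the start (8 matches in 6 genes, median 41 bases before it). Matches that overlap were counted singly. The ends of this span lie in Irgm2 and Irgm1, whose positions hold for the RefSeq start only. The ISRE matches of the type I genes were spread from 155 bases before to 38 bases after the start (26 matches, median 70.5 bases before). Of the 35 ISRE matches in all, 27 began within the 150 bases before the start and 6 began after it, among them the match of Samd9l at 38 bases.

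**Figure D1:**
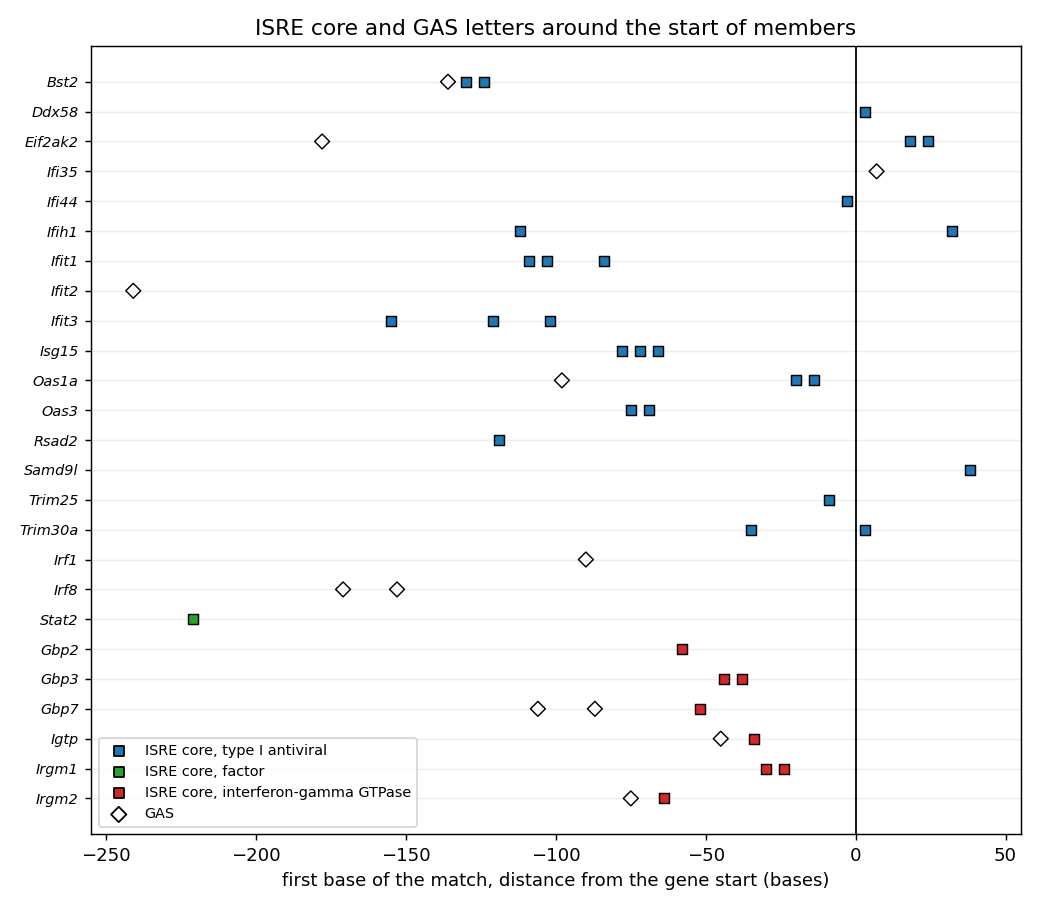
Position of ISRE core (filled squares, coloured by class) and GAS (open diamonds) letters in the promoter windows of the members that held either; the horizontal axis is the distance in bases of the first matched base from the gene start (vertical line), and each row is a gene. The squares of the GTPases sit between 64 and 24 bases before the start, while those of the type I genes run from 155 bases before to 38 bases after it. The ends of the GTPase span are squares of Irgm2 and Irgm1, whose positions hold for the RefSeq start only.

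Of the 44 members, 40 had a mean of at least 1 CPM (90.9%) and 19 of at least 10 CPM (43.2%), beside 55.9% and 32.2% of all 23276 genes. Their levels ran from 0.472 CPM (Mx1) to 154.1 CPM (Samd9l), which were also the lowest and the highest per length, with a median of 8.72 CPM. Together they summed to 589.3 CPM, of which Samd9l held 26.2%, a share that is not corrected for length. Per length the median member stood at 2.88 CPM per kilobase, above the 1.03 of all genes with a length and below the 4.20 of the 13001 genes with at least 1 CPM. Against that second set, 29 members lay between the quartiles (1.85 and 9.38 CPM per kilobase), 12 below them and 3 above. The 3 were Samd9l, Irgm1 and Bst2. The 12 include the 4 members under 1 CPM, which cannot belong to that set. The 40 members with at least 1 CPM had a median of 3.25 CPM per kilobase.

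**Figure D2:**
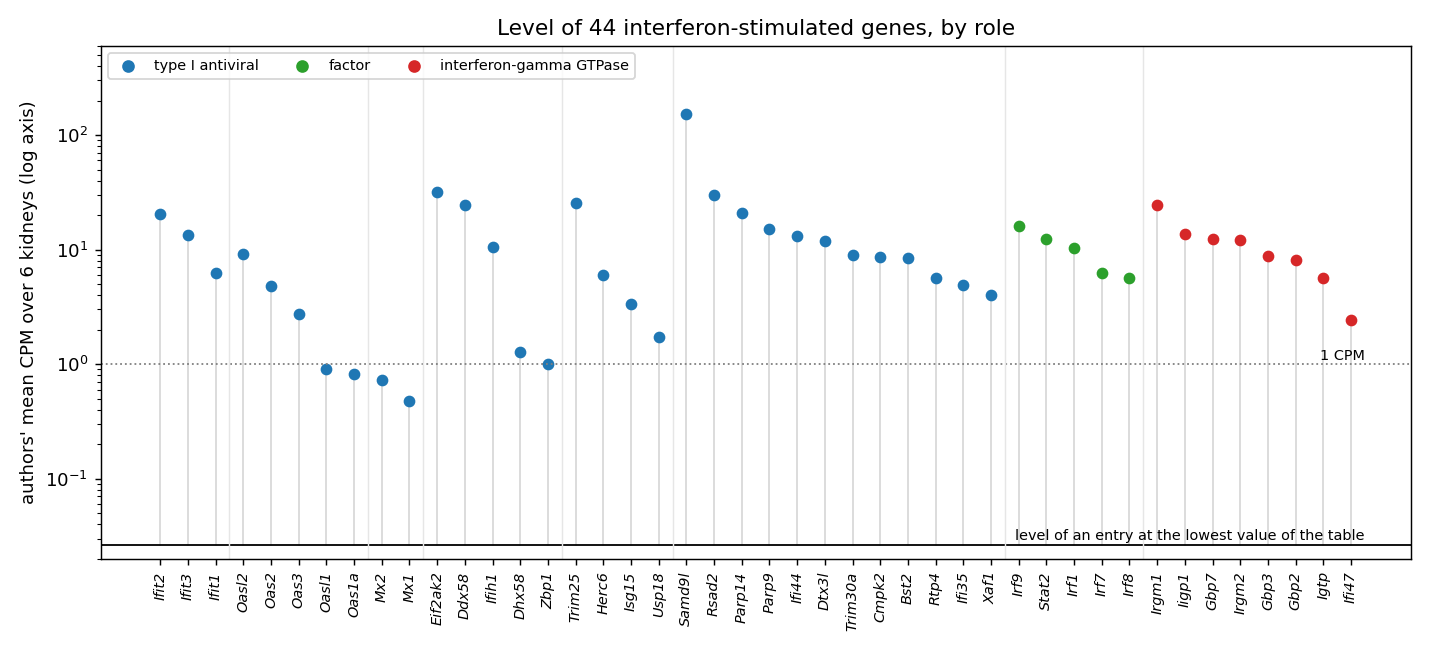
Mean CPM over 6 kidneys (log axis) of each of the 44 members, ordered by role and coloured by class; the dotted line marks 1 CPM and the solid line the lowest value in the table (0.0263 CPM). Samd9l stands alone at 154.1 CPM, and Oasl1, Oas1a, Mx2 and Mx1 lie under 1 CPM.

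Of the IFIT proteins, Ifit1 binds viral RNA that lacks the host's cap marks. Ifit2 had 20.3 CPM, Ifit3 13.3 CPM and Ifit1 6.20 CPM. Per length the order was Ifit3 (7.63 CPM per kilobase), Ifit2 (5.32) and Ifit1 (2.33). The 3 genes are neighbours on chromosome 19. Ifit3 has a near copy, Ifit3b, and reads that fit both may have failed the authors' filter on mapping quality, so its level is uncertain.

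The OAS family makes the 2′-5′ linked oligoadenylates that switch on RNase L, and it was among the lowest of the roles. Its median was 0.578 CPM per kilobase, and none of its 5 genes reached 10 CPM. Oasl2 stood highest with 9.11 CPM (2.92 per kilobase). It was followed by Oas2 with 4.78 CPM (1.23 per kilobase) and Oas3 with 2.73 CPM (0.578 per kilobase). The level of Oas2 is that of an assembled entry, and its RefSeq entry, whose length was used, had 3.65 CPM. Oas1a, one of several similar Oas1 genes in the mouse, had 0.815 CPM and Oasl1, known as a brake on Irf7 translation, 0.906 CPM. The dynamin-like GTPases Mx1 and Mx2 were lower still, at 0.472 and 0.722 CPM (0.175 and 0.299 per kilobase). RefSeq lists both as transcribed pseudogenes in the reference strain, which carries defective alleles of them.

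The genes nearest to 1 CPM on either side were Oasl1 at 0.906 CPM below it and Zbp1 at 1.01 CPM above it. The 4 members under 1 CPM were still 17.9 to 34.4 times the lowest value of the table, at which 4617 of the 54721 transcript entries sit. They were therefore listed above the level of an entry without reads, at a low level.

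Among the sensors of foreign nucleic acid, the RNA helicases Ddx58 (RIG-I) and Ifih1 (MDA5) had 24.7 and 10.6 CPM (6.37 and 1.94 per kilobase). Their relative Dhx58 (LGP2), which lacks the signalling domains, had 1.27 CPM (0.525 per kilobase). Eif2ak2 (PKR), the kinase that stops translation upon binding double-stranded RNA, had 32.0 CPM (7.41 per kilobase). That is the level of an assembled entry, and the RefSeq entry of Eif2ak2, whose length was used, had 26.3 CPM. Zbp1, which binds Z-form nucleic acid and can start necroptosis, had 1.01 CPM (0.508 per kilobase). The role thus covered a wide span, with Eif2ak2 and Ddx58 above the median of expressed genes per length and Dhx58 and Zbp1 below the lower quartile.

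In the ISG15 system, Isg15 itself had 3.33 CPM. Its transcript is short, and per length it reached 4.40 CPM per kilobase. Usp18, the protease that removes Isg15 from proteins, had 1.72 CPM (0.973 per kilobase), and Herc6, the mouse ligase that attaches it, had 5.95 CPM (1.25 per kilobase). Trim25, a ubiquitin ligase of the RIG-I pathway, had 25.6 CPM (4.58 per kilobase). Isg15 and Trim25 were the higher pair per length and Usp18 and Herc6 the lower.

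Samd9l, a member of the SAMD9 family of antiviral proteins and negative regulators of growth, had 154.1 CPM from a single transcript entry. Per length it reached 28.9 CPM per kilobase, more than 95.8% of all genes with a length and 2.67 times the next member, Irgm1. Rsad2 (viperin), which makes a chain-terminating nucleotide, had 29.8 CPM (7.88 per kilobase). Its neighbour on chromosome 12, the mitochondrial nucleotide kinase Cmpk2, starts 12664 bases away on the other strand and had 8.63 CPM (2.70 per kilobase). Bst2 (tetherin), which holds budding virions on the cell surface, had 8.42 CPM, but its short transcript put it at 10.6 CPM per kilobase, close to Irgm1.

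Parp9 and Dtx3l, partners in a complex of an ADP-ribosyltransferase family protein and a ubiquitin ligase, had 15.2 and 11.8 CPM (4.29 and 2.23 per kilobase). They are transcribed from opposite strands and overlap by 558 bases, and the strand setting of the counting is not given in the sources used here, so reads in the overlap may count for either. Parp14, a related enzyme nearby, had 21 CPM (2.83 per kilobase). The remaining effectors lay between 1.55 and 4.47 CPM per kilobase. These were Ifi44 (13.0 CPM), Trim30a (9.01 CPM), Rtp4 (5.70 CPM), Ifi35 (4.90 CPM) and the XIAP-binding protein Xaf1 (4.04 CPM). Trim30a belongs to a cluster of similar genes, and Rtp4 overlaps Masp1 on the other strand.

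Among the factors, Irf9 and Stat2, which act in the complex that binds the ISRE, had 16.1 and 12.5 CPM (5.46 and 2.84 per kilobase). Irf1 had 10.2 CPM (4.78 per kilobase). Irf7, the amplifier of type I interferon production, had 6.29 CPM (3.28 per kilobase), and Irf8, a factor of the myeloid lineage, had 5.61 CPM (1.97 per kilobase). All 5 factors lay above 1 CPM. Irf9 overlaps Rnf31 on its own strand and Irf7 overlaps Phrf1 on the other, so both levels may hold reads of those genes.

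Irgm1, which regulates the other immunity-related GTPases, led the interferon-gamma class with 24.5 CPM (10.8 per kilobase, above 87.7% of all genes). Its relatives Irgm2 and Igtp had 12.01 and 5.64 CPM (3.47 and 2.79 per kilobase). Iigp1, an effector GTPase that coats parasite vacuoles, had 13.6 CPM (4.34 per kilobase), and Ifi47 was the lowest of the class with 2.43 CPM (1.44 per kilobase). Gbp7 had 12.4 CPM, Gbp3 8.80 CPM and Gbp2 8.10 CPM, between 2.21 and 3.35 CPM per kilobase. Gbp genes and Iigp1 have close copies in the mouse genome, and the annotation joins Igtp and Irgm2 through a shared transcript, so reads may be lost or shared among them.

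The question of whether the type I antiviral genes and the interferon-gamma GTPases stood at different levels in these kidneys was answered by description only, since genes are not replicates. Per length the median GTPase had 3.28 and the median type I gene 2.70 CPM per kilobase, a ratio of 1.22. In CPM, which also hold transcript length, the medians were 10.4 and 8.42, a ratio of 1.24. The classes overlapped widely. Per length, 20 of the 31 type I genes fell inside the range of the 8 GTPases (1.44 to 10.8 CPM per kilobase), 10 fell below it and 1, Samd9l, above it. The type I genes, which are more numerous, spanned from 0.175 to 28.9 CPM per kilobase, and all 8 GTPases had at least 1 CPM. The 5 factors, with a median of 3.28 CPM per kilobase, lay within the range of both.

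**Figure D3:**
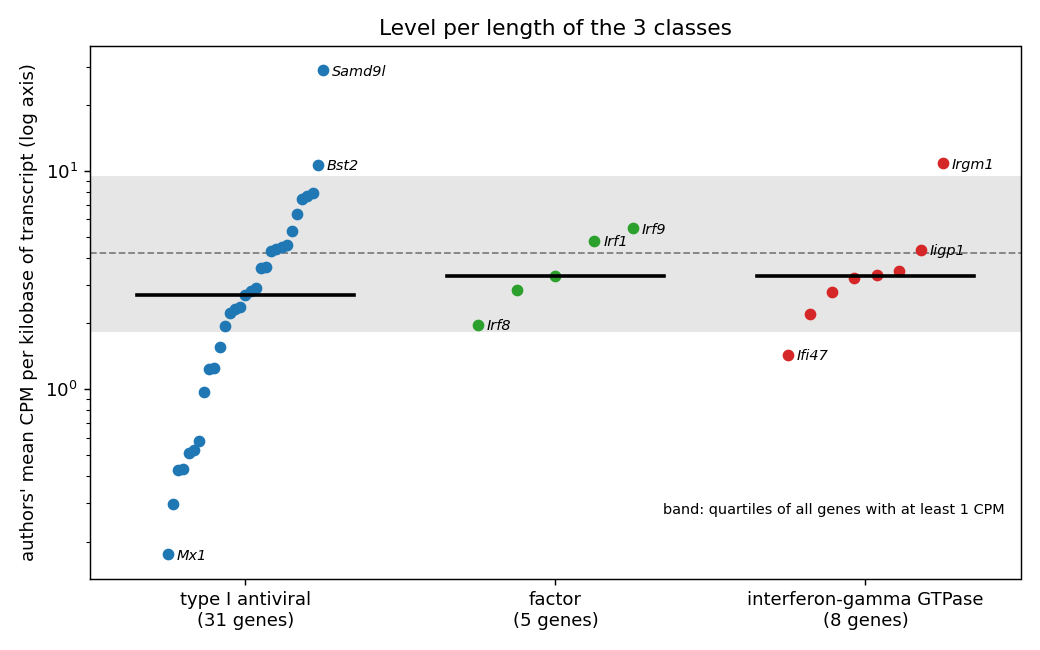
Mean CPM per kilobase of transcript (log axis) of each member in the 3 classes, points sorted within a class, black bars for class medians, with the dashed line and grey band for the median and quartiles of all genes with at least 1 CPM. The medians of the 3 classes lie between 2.70 and 3.28, and the type I genes reach both below and above the GTPases.

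The table lists transcripts, not genes, and 97 entries carried a member's symbol, 58 with a RefSeq identifier and 39 assembled by the authors from the reads. A gene was represented by its highest entry. For 14 members there was a single entry, and 30 had 2 to 5. In 22 of these 30 the highest and lowest entries differed by less than 1.2-fold, and in 7 by more than 1.5-fold. The widest were Oas2, whose 4 entries ran from 0.981 to 4.78 CPM (4.87-fold), Trim30a (2.44 to 9.01 CPM) and Oas1a (0.266 to 0.815 CPM). Dhx58, Zbp1, Xaf1 and Irf1 followed. For Irf1, 4 of the 5 entries lay between 9.56 and 10.2 CPM and a RefSeq entry lay apart at 6.77 CPM. Entries of a gene share exons, so a read can count for several of them, and their sum exceeds the gene's reads.

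**Figure D4:**
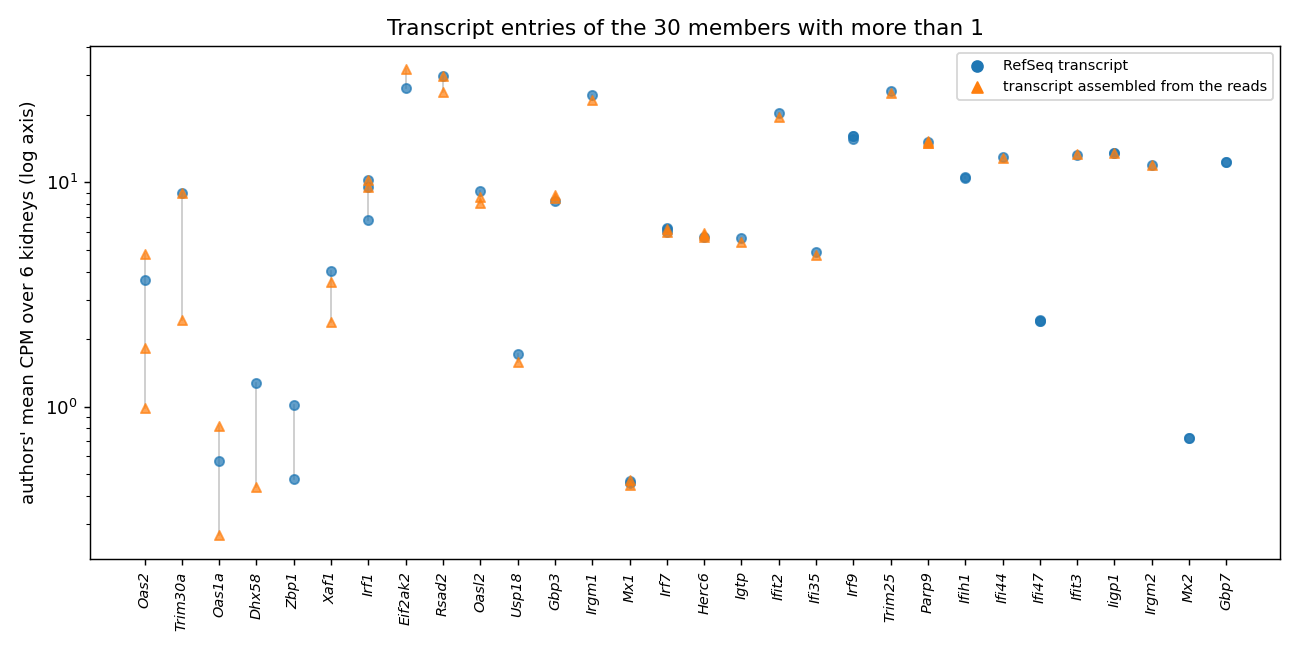
Mean CPM (log axis) of each transcript entry of the 30 members with more than 1, RefSeq entries as circles and assembled ones as triangles, joined by a line and ordered by the ratio of highest to lowest. Oas2 at the left spans 0.981 to 4.78 CPM, and most genes to the right have entries that lie on top of each other.

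The 6 interferon ligand genes looked at were at or near the bottom of the table, and no interferon-alpha gene was among them. Ifnb1, Ifnk, Ifne and Ifnl2 were at its lowest value, and Ifng and Ifnl3 stood at 0.0395 and 0.0292 CPM. All 6 receptor genes were at 3.71 CPM or more, from 0.886 CPM per kilobase for Ifnlr1, the chain particular to type III interferon, to 11.97 for Il10rb, the chain that type III interferon shares with interleukin 10. Ifnar1, a chain of the type I receptor, had 41.7 CPM (10.7 per kilobase), and Ifnar2, the other, had 13.96 CPM. The gamma receptor chains Ifngr1 and Ifngr2 had 17.4 and 14.8 CPM. Of 13 transducers, 12 had at least 1 CPM, among them Jak1 with 70.1 CPM (14.3 per kilobase) and the RIG-I adaptor Mavs with 49.99 CPM (16.4 per kilobase). The exception was Socs1, the feedback inhibitor of Jak kinases, with 0.192 CPM. Of the 25 genes of this list found in the table, 18 had at least 1 CPM.

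The kidney label held by its markers, with the 6 tubule genes at 77.7 to 1022 CPM, led by Umod of the thick ascending limb and with the 3 endothelial genes at 27.002 to 52.7 CPM. Of 16 immune cell markers, 7 had at least 1 CPM, and the 16 summed to 52.2 CPM beside 2934 CPM for the 6 tubule markers. These sums are not corrected for length and depend on which genes were picked, so they do not give shares of cells. The general leukocyte gene Ptprc had 8.20 CPM and the macrophage genes Csf1r and Emr1 25.3 and 4.49 CPM, whereas dendritic cell markers had 0.249 to 1.36 CPM, T cell markers 0.160 to 1.71 CPM, B cell markers 0.190 to 0.311 CPM and NK cell markers 0.0484 to 0.187 CPM. None of the 16 was at the table's lowest value. How much of any member's level came from immune cells was not tested.

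Because the DKO kidneys carry floxed miR-17~92 alleles with KspCre, the members were also searched for seed matches of its microRNAs. The mature sequences (RefSeq, GRCm38.p6, chromosome 14) are shown with the seed, bases 2 to 8, in capitals, and they fall into 4 groups by seed, since miR-17 and miR-20a share 1 seed and miR-19a and miR-19b another.
miR-17-5p: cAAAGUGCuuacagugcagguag
miR-20a-5p: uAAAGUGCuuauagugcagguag
miR-18a-5p: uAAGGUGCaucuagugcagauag
miR-19a-3p: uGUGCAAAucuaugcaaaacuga
miR-19b-3p: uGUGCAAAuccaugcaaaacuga
miR-92a-3p: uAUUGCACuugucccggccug

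The letters that pair with the miR-17 seed, GCACTTT, stood in the 3′-UTR of 7 of the 44 members (15.9%), against 11.04% of 18968 genes. The 7 were Ifit1, Ifit3, Eif2ak2, Cmpk2, Xaf1, Irf1 and Irf9. The median 3′-UTR had 980 bases in the members and 790 in all genes, and the part of this length in the shares was not tested. The miR-19 match, TTTGCAC, stood in 2 members (4.55%), Ifih1 and Stat2, against 10.1% of all genes. The miR-18 match, GCACCTT, stood in 2 members (4.55%), Ifit3 and Dhx58, against 7.22% of all genes. The miR-92 match, GTGCAAT, stood in 4 members (9.09%), Oas2, Mx1, Ifih1 and Trim25, against 6.005% of all genes. These shares were within a few genes of the background, and no match is evidence that a microRNA acts on the gene. None of the 8 GTPases held any of these matches, and most of the type I genes held none either. The share of all genes that hold none of them was not computed. Of the miR-17 and miR-19 sites, those in Irf9 and Stat2 were followed by an A, the base opposite the first base of the microRNA. How often sites over all genes are followed by an A was not computed, and the miR-18 and miR-92 sites were not looked at for it. The Irf9 and Stat2 sites are shown with the match in capitals.
Irf9, miR-17 site, chr14:55609368-55609396, plus strand: tctaaatctaaGCACTTTatatattttat
Stat2, miR-19 site, chr10:128292211-128292239, plus strand: gcatcatttctTTTGCACagtgttttgtt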

How the data were processed

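Kidney RNA was made into TruSeq Stranded Total RNA libraries and read as 51 base single-end reads. The submitters' processing notes name bcl2fastq 1.8.4, TopHat2 2.0.12, Cufflinks, featureCounts of Subread 1.4.6 and edgeR 3.2.4 with mm10, and reads aligned with a mapping quality below 10 were left out by the authors. The strand setting of the counting is not given in the sources used here. The labels give day 22, while the study's text gives an age 1 day lower.

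The authors deposited 1 table of 54721 transcript entries, whose mean log2 CPM over all 6 kidneys was used and turned into CPM. Its other columns hold the authors' comparison (log2 fold change, likelihood ratio statistic, p-value and adjusted p-value) and were not used. With no value per kidney, no test, SD or interval could be computed and the depth is unknown. Whether same-group kidneys are separate animals is not stated in the labels, while the study's text calls them biological samples.

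Each gene was represented by its highest entry, and 9317 entries without a symbol were left out. Lengths came from the GENCODE M21 transcript paired with the RefSeq identifier, for 22662 of 23276 genes (97.4%) and all 44 members. For the 9 members represented by an assembled entry, the length of their RefSeq entry was taken, so their level per length joins values of different transcripts. All members were named, in roles, and the other pathway genes and cell markers came from lists, of which some genes are not reported here. Members and lists were chosen with earlier results of these data known, and the seed matches were added after the table had been seen. Promoters were searched on both strands (ISRE core and GAS). The choice of the highest entry and the search for the ISRE core were tested on simulated data. The GAS letters, the seed search and the summaries were not. Python 3.11.15, numpy 2.4.6, pandas 2.3.3 and matplotlib 3.10.9 were used.

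The alternatives tried were the sum of entries, RefSeq mRNA entries alone, subtraction of the table's lowest CPM, CPM per kilobase, other class borders, a minimum of 1 CPM and longer motif letters.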

Additional observations from a re-analysis of the deposited data

How the results depend on the processing

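The ratio of the median GTPase to the median type I gene, 1.24 in CPM, stayed above 1 under the alternatives run for it. It was 1.22 per kilobase, 1.22 with the factors counted as type I genes, 1.64 with Ifi47 counted as a type I gene, 1.15 over members with at least 1 CPM, 1.202 with RefSeq mRNA entries alone (an alternative chosen after seeing the data) and 2.17 with the entries of each gene summed. Summing counts shared exons several times, and the cause of the rise was not tested. The 97 entries of the members came down to 58 when RefSeq identifiers alone were taken. The number of members with at least 1 CPM was 43 with summed entries, 40 with RefSeq mRNA entries and 39 with the table's lowest value subtracted, the change from 40 being Zbp1 in the last case. Longer letters left 18 members with an ISRE core (52.9% of those with a window), against 3.99% of all genes. They left 8 with a GAS (23.5%), against 5.60% of all genes. No paired analysis was possible because the labels carry no replicate numbers and no value per kidney was used. The unknown depth limits the statements on genes near or under 1 CPM.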

Other observations

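The members lay on 15 chromosomes, with 9 of them on chromosome 11 and 6 on chromosome 16. Some neighbours stood at different mean levels per length, with no spread to set this against and with distances taken between RefSeq gene spans. Oasl2 and Oasl1, 10897 bases apart on chromosome 5, had 2.92 and 0.426 CPM per kilobase, and Oas2 and Oas3, 3211 bases apart, had 1.23 and 0.578. Ifit2 and Ifit3, 6584 bases apart, had 5.32 and 7.63. Igtp and Irgm2, 7384 bases apart, had 2.79 and 3.47. Among the members with the most ISRE matches, Isg15, Ifit1 and Ifit3, levels ran from 2.33 to 7.63 CPM per kilobase, and Samd9l, the highest member, held 1 match, after its start. Whether the number of matches, with overlapping ones each counted, goes with the level over the members with a window was not tested.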
